A study of Mus musculus with 8 samples.

Results

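Eosinophils, basophils and mast cells are granule-bearing cells of allergic and anti-parasite responses, and 10 genes that mark them were described here in sorted myeloid cells of the mouse spleen. The genes were Epx, Prg2, Prg3, Il5ra, Mcpt8, Fcer1a, Ms4a2, Cpa3, Gata2 and Prss34. They were found by gene symbol, each on 1 row, among the 23084 genes of the deposited table. Eosinophils carry granules filled with basic proteins and a peroxidase, and depend on interleukin-5 for their formation. Basophils and mast cells carry serine proteases and a carboxypeptidase in their granules, and bind IgE through a high-affinity receptor whose crosslinking releases the granules. GATA transcription factors act in the progenitors of all these cells.

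The study asked how the loss of lamin A/C, a protein of the nuclear lamina encoded by Lmna, affects the differentiation of myeloid cells. RNA was sequenced from 8 samples in 4 groups of 2. The groups were wt CD11b+Ly6C+ cells, wt CD11b+Ly6G+ cells, LmnaMyeKO CD11b+Ly6C+ cells and LmnaMyeKO CD11b+Ly6G+ cells. CD11b marks myeloid cells, Ly6C the monocytic and Ly6G the granulocytic subset, and both subsets were obtained from spleens by flow cytometric sorting. Mice were C57BL/6, 6 to 8 weeks old. LmnaMyeKO mice carried floxed Lmna alleles and a Cre recombinase expressed from the Lyz2 (LysM) locus, which is active in monocytes, macrophages and neutrophils. The wt mice are described in the labels by genotype alone. The sample titles gave the subset, since the cell marker label read CD11b+Ly6C+ for every sample. Nothing in the labels said which samples came from separate animals.

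The value used for each gene was a single mean signal, the authors' mean of size-factor-normalised read counts over libraries. Values of single samples were not used here, so no genotype or subset was compared and no test was made. In bulk samples of this kind, fewer cells of a type and less RNA per cell cannot be told apart.

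The number of libraries behind the mean was read from the data. Mean signals below 0.5 are made of a few whole reads, each worth 1 divided by the size factor and by the number of libraries. The worth of a read in each library was solved from values in this same low range, so the match is not a separate check. All 1730 such values were matched, within 3e-09, by whole reads of 8 libraries, each value in 1 way only. That is as many libraries as the labels list, so the mean signal pooled both genotypes and both subsets. The libraries carry no label in this reading and were put in no group. Of the 8, 1 stood apart, with a size factor of 1.91 against 0.796 to 1.05 for the others, and its weight in the mean could not be removed for the genes described. A read was worth between 0.0653 and 0.157 of mean signal, depending on its library. These bounds give the lowest and highest number of reads behind each mean signal, and an upper limit for its counting SD. They cover counting error only, not the spread between mice or the choice of transcript length.

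Levels were compared between genes per length, as the mean signal divided by the longest annotated transcript and scaled to sum to 1000000 over the 23004 genes with a length, so that a value is in parts per 1000000 (ppm). On this scale the median gene stood at 1.78 ppm, and 9 of the 10 genes lay above it. For Fcer1a, Ms4a2 and Prg3 the 95% counting limits included the median gene. Among the 15697 protein-coding genes with a length the median was 6.51, and 3 of the 10 genes, Prg2, Prss34 and Mcpt8, lay above that. Together the 10 genes held 0.00592% of the summed mean signal. Their level per length spanned 31.1-fold, from Prg2 at the top to Gata2 at the bottom. With the mean length of the annotated transcripts in place of the longest, Prg2 stood at 27.1 and Prss34 at 15.8 ppm, and Fcer1a was lowest at 1.44 ppm in place of Gata2, so that the span was 18.8-fold. With merged exons it was 47.0-fold, with Gata2 lowest.

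**Figure D1:**
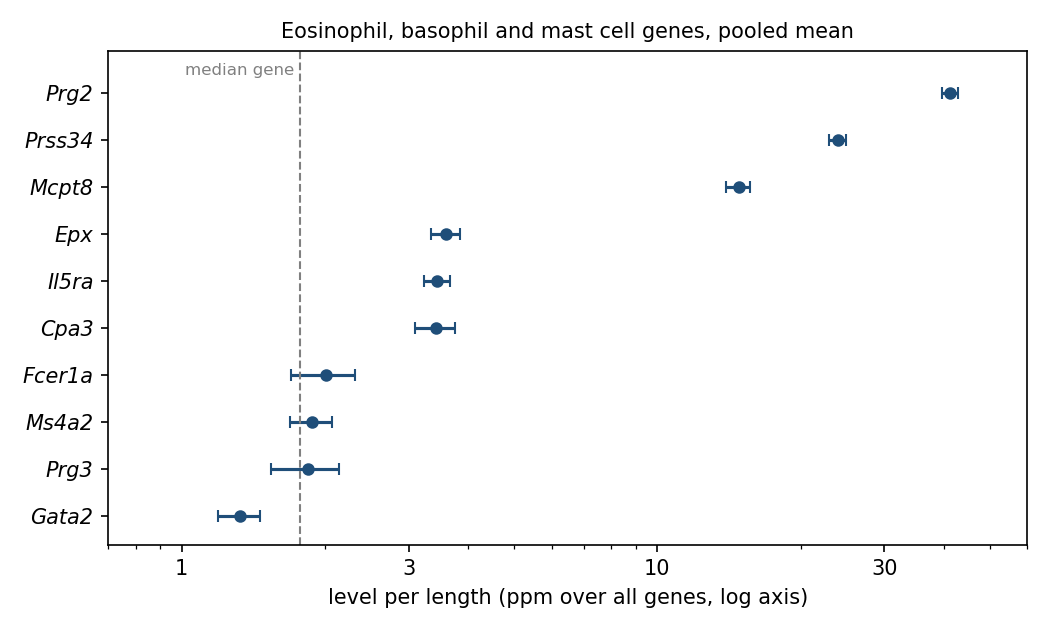
Level per length of the 10 genes in the pooled mean of 8 libraries, in ppm over all genes on a log axis. Points are levels and bars the widest 95% counting limits, and the dashed line marks the median gene at 1.78. Prg2, Prss34 and Mcpt8 lie between 14.8 and 41.2, and the other 7 genes lie between 1.33 and 3.60.

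By longest transcript, the order of the levels fell into steps. Prg2 stood 1.72-fold above Prss34 (95% counting limits 1.63 to 1.82), which stood 1.62-fold above Mcpt8 (1.51 to 1.74). The widest gap followed, with Mcpt8 4.12-fold above Epx (3.76 to 4.51), or 2.72-fold with mean transcript lengths. Epx, Il5ra and Cpa3 did not differ from one to the next beyond counting error, with 1.04-fold between Epx and Il5ra and 1.01-fold between Il5ra and Cpa3. Cpa3 stood 1.71-fold above Fcer1a (1.42 to 2.05), or 2.45-fold with mean transcript lengths. Fcer1a, Ms4a2 and Prg3 again formed a run without separation beyond counting error, and Prg3 stood 1.39-fold above Gata2, beyond counting error. The lower steps depended on the length used. With mean transcript lengths Ms4a2 stood 1.62-fold above Prg3 and 1.81-fold above Fcer1a, and Prg3 and Gata2 both stood at 1.61 ppm. With merged exons Prg3 stood 2.10-fold above Gata2.

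Of Prg2, Prg3 and Epx, which encode eosinophil granule proteins, Prg2 had the highest level. Prg2 (ENSMUSG00000027073.5) encodes major basic protein, the crystalline core of the eosinophil granule, and lies on the forward strand at chr2:84980461-84983632 (GRCm38). Its mean signal was 438.8, from at least 2796 and at most 6715 reads, with a counting SD of at most 1.89%. Its level per length was 41.2 ppm (95% counting limits 39.7 to 42.8), and 12.1% of genes stood higher. That share was 28.7% by mean signal without length, and 19.5% among genes with a mean signal of at least 10. Prg2 alone held 29.4% of the summed mean signal of the 10 genes.

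Prg3 (ENSMUSG00000027072.13), which encodes a homologue of major basic protein, is the coding gene next to Prg2 on the same strand, 4582 bp further along, at chr2:84988215-84993886. Its mean signal of 22.2 was the lowest of the 10 genes and rested on 142 to 339 reads, with a counting SD of at most 8.41%. Prg2 exceeded Prg3 22.4-fold by longest transcript (95% counting limits 18.9 to 26.5), or 16.9-fold by mean transcript length. The pair share sequence. Their closest alignment ran over 362 bases at 70.7% identity, and no window of 50 bases of either transcript was found in a transcript of another gene. The other neighbours of the pair were Slc43a3 at 12.8 and P2rx3 at 0.508 ppm.

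Epx (ENSMUSG00000052234.2), the eosinophil peroxidase, lies on the reverse strand at chr11:87864000-87875536. Epx had a mean signal of 122.8, with a counting SD of at most 3.58%, and its level per length was 3.60 ppm (3.34 to 3.85), 11.5-fold below Prg2 by longest transcript and 7.14-fold by mean transcript length. Mpo, the peroxidase of neutrophils and monocytes and the gene most similar to Epx by transcript, stood 32.4-fold higher at 117 ppm. By mean transcript length Mpo stood 42.7-fold above Epx, and by merged exons 26.5-fold. The alignment of the pair covered 75.8% of the Epx transcript at 71.9% identity, and again no 50-base window was shared. The end of Epx lies 196 bp from the coding gene Mks1, which is on the other strand and stood at 2.67 ppm.

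The list of eosinophil granule genes held 8 genes, all of them listed, with a median level of 3.46 ppm, and 7 lay above the median gene. The median of protein-coding genes, 6.51 ppm, was passed by Ear2 and Prg2 only. Ear2, a ribonuclease of the eosinophil-associated family, was highest at 174 ppm, above Prg2, and Ear10 of the same family lowest at 0.231. Which cells the Ear2 signal came from was not tested. Levels within this family are uncertain, since 41.5% of the 50-base windows of Ear2 and 57.4% of those of Ear1 also occur in transcripts of related genes. Rnase2a, which shared no such window, stood at 3.17 ppm, between Prg3 and Epx.

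Il5ra (ENSMUSG00000005364.11) encodes the chain that gives the interleukin-5 receptor its specificity, and lies at chr6:106710357-106749037 on the reverse strand. The mean signal of Il5ra was 156.3, from 996 to 2392 reads, and its level per length was 3.44 ppm (3.23 to 3.66). Of its 50-base windows, 0.936% occur in transcripts of other genes. The signalling chain Csf2rb, which the receptors for interleukin-5, interleukin-3 and GM-CSF share, stood 69.1-fold above Il5ra at 238 ppm by longest transcript. Csf2rb stood 122-fold above Il5ra by mean transcript length and 46.6-fold by merged exons. Csf2ra, specific to GM-CSF, stood 62.2-fold above Il5ra, or 87.4-fold by mean transcript length and 49.4-fold by merged exons. Il3ra, specific to interleukin-3, stood 2.09-fold above Il5ra (95% counting limits 1.93 to 2.27). For Il3ra the ratio was 3.10-fold by mean transcript length and 1.63-fold by merged exons. Csf2rb2, a mouse copy of the shared chain used by the interleukin-3 receptor, stood 7.82-fold above Il5ra, or 10.9-fold by mean transcript length. Reads of Csf2rb and Csf2rb2 can be confused, since 18.4% and 19.4% of their 50-base windows occur in transcripts of other genes. Il5ra was thus the lowest of the 5 receptor chains per length.

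Other surface genes used to identify eosinophils were above Il5ra, with 1 exception. Ccr3, the eotaxin receptor, stood at 67.6 ppm and Siglecf at 15.7. Il1rl1, the interleukin-33 receptor, was the lowest of this list at 1.87 and Pirb the highest at 458. Pirb and Adgre1, as well as both GM-CSF receptor chains, are also made by monocytes, macrophages or neutrophils. Among eosinophil enzymes and factors, Cebpe was highest at 154 ppm and Alox15 lowest at 1.497. Cebpe acts in neutrophil as well as eosinophil maturation.

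**Figure D2:**
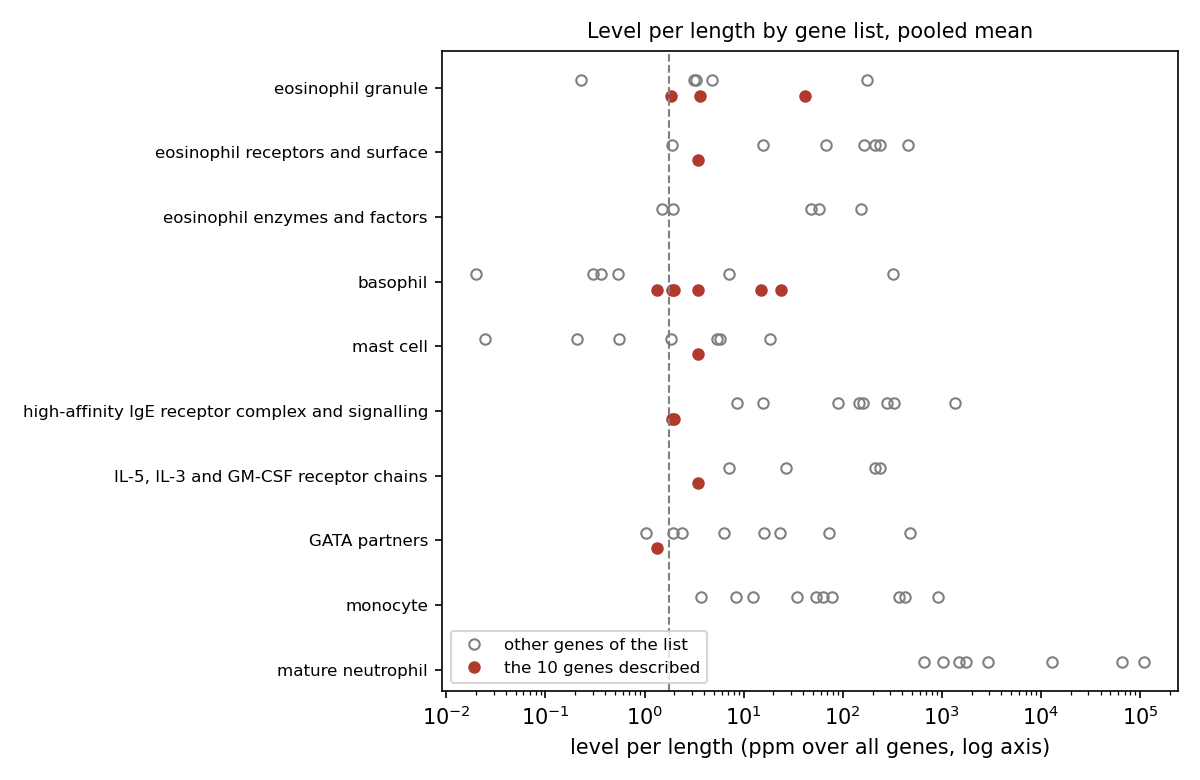
Level per length of each listed gene of 10 gene lists in the pooled mean of 8 libraries, in ppm over all genes on a log axis. Filled points are the 10 genes described, open points the other genes of each list, and the dashed line marks the median gene at 1.78. Mature neutrophil genes lie between 657 and 110119, above all 10 genes described.

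The proteases of basophils were the next most abundant. Prss34 (ENSMUSG00000056399.1), a tryptase-like protease also known as mMCP-11, lies at chr17:25298394-25300165 on the forward strand. Its mean signal was 371.1, from 2364 to 5679 reads, and its level per length was 24.0 ppm (95% counting limits 23.0 to 24.9), with 18.8% of genes higher. The share higher was 30.7% by mean signal without length, and 30.3% among genes with a mean signal of at least 10. The coding gene that follows Prss34, the related protease Prss28, stood at 0.0725 ppm. Tpsab1, the gene closest to Prss34 by transcript at 66.0% identity, was not listed and not analysed here.

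Mcpt8 (ENSMUSG00000022157.7), a chymase-family protease used as a marker of mouse basophils, lies at chr14:56082166-56085273 on the reverse strand. Mcpt8 had a mean signal of 177.8, with a counting SD of at most 2.97%, and its level per length was 14.8 ppm (14.0 to 15.7). The gene lies in a cluster of granule proteases, and the next coding gene at higher coordinates, 14607 bp away, is Ctsg, the cathepsin G of neutrophil and monocyte granules, at 44.0 ppm. Mcpt4 on its other side was not listed and not analysed here. The miRNA gene Mir6949 lies within Mcpt8, and has no value used here.

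Cpa3 (ENSMUSG00000001865.2), the carboxypeptidase of mast cell granules that basophils also make, lies at chr3:20215620-20242181 on the reverse strand. Its mean signal was 63.0, from 402 to 964 reads, with a counting SD of at most 4.99%. Its level per length was 3.43 ppm (3.09 to 3.76), 4.32-fold below Mcpt8 by longest transcript and 2.92-fold by mean transcript length. The neighbouring carboxypeptidase gene Cpb1 stood at 0.183 ppm, and the neighbour on the other side, Gyg, at 107. The miRNA gene Mir7007 lies within Cpa3.

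The proteases of connective tissue and mucosal mast cells were much lower than the basophil proteases or not listed. Of 12 mast cell genes 8 were listed, and 5 of them lay above the median gene. Only Hpgds lay above the 6.51 ppm of the median protein-coding gene. Tpsb2, a tryptase, was the lowest at 0.0245 ppm, and its mean signal of 0.400 was made of 3 reads in 2 libraries. The chymase genes Mcpt2 and Cma1 stood at 0.209 and 0.547 ppm. Tpsab1, Mcpt1, Mcpt4 and Mrgprb2 were not listed and not analysed here. Kit, the stem cell factor receptor, which progenitors also carry, stood at 5.37 ppm and Hpgds, a prostaglandin D synthase, was the highest of this list at 18.5. Which cells the Hpgds signal came from was not tested.

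Of 12 basophil genes all were listed, and 7 lay above the median gene, with a median level of 1.94 ppm. Only Hdc, Prss34, Mcpt8 and Il3ra lay above the 6.51 ppm of the median protein-coding gene. Hdc, the histidine decarboxylase that makes histamine, was the highest at 325 ppm, 7.89-fold above Prg2 by longest transcript. It stood 21.2-fold above Prg2 by mean transcript length and 5.58-fold by merged exons. Neutrophils make Hdc as well. Il13 was the lowest at 0.0199, with 3 reads in 2 libraries, and Il4 stood at 0.362. The surface genes Cd200r3 and Itga2 stood at 0.546 and 0.299 ppm, below each of the 10 genes described.

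The IgE receptor is built from an alpha chain that binds IgE, a beta chain that amplifies the signal and a gamma chain shared with other Fc receptors. Fcer1a (ENSMUSG00000005339.10), the alpha chain, lies at chr1:173221284-173227214 on the reverse strand between olfactory receptor genes. A mean signal of 25.4 was found, from 162 to 389 reads, and its level per length was 2.01 ppm (95% counting limits 1.70 to 2.32). Ms4a2 (ENSMUSG00000024680.12), the beta chain, lies at chr19:11615523-11623719 on the reverse strand. Ms4a2 had a mean signal of 57.0, from 364 to 872 reads, and its level per length was 1.88 (1.69 to 2.07). The ratio of beta to alpha chain was 0.936 (0.778 to 1.13) by longest transcript, within counting error of equal levels. By mean transcript length it was 1.81 and by merged exons 0.796, so which chain was higher depended on the length used.

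The gamma chain Fcer1g, which monocytes and neutrophils use for IgG receptors, stood at 1368 ppm, 682-fold above Fcer1a and 728-fold above Ms4a2 by longest transcript. By mean transcript length it stood 743-fold above Fcer1a and 411-fold above Ms4a2. The 7 signalling genes of the list, from Lyn and Syk to Plcg1, lay between 8.67 and 330 ppm. Fcer1a and Ms4a2 were thus the lowest of the 10 genes of this complex and its signalling. For Ms4a2, 2.69% of its 50-base windows occur in Ms4a4b, a related gene with a mean signal of 1080, so part of its signal is uncertain. The neighbours Ms4a6d and Ms4a3, of the same family, stood at 26.9 and 25.02 ppm.

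Gata2 (ENSMUSG00000015053.14), the transcription factor of progenitors, mast cells and basophils, lies at chr6:88193891-88207032 on the forward strand. Its mean signal was 60.1, from 383 to 919 reads, and its level per length of 1.33 ppm (95% counting limits 1.19 to 1.46) was the lowest of the 10 genes by longest transcript, with 52.8% of genes higher. The share higher was 48.2% by mean signal without length, and 84.2% among genes with a mean signal of at least 10. Gata1, which acts in eosinophils, erythroid cells and megakaryocytes, stood at 1.94, a ratio of Gata2 to Gata1 of 0.684 (0.588 to 0.795). That ratio was 0.662 by mean transcript length and 0.580 by merged exons. Gata3 stood at 1.04 and Tal1 at 2.38 ppm, but Gata3 was 1.496-fold above Gata2 by mean transcript length. Spi1, which encodes the myeloid factor PU.1, stood 364-fold above Gata2, or 447-fold by mean transcript length and 415-fold by merged exons. Cebpa stood 17.7-fold above Gata2, or 10.6-fold by mean transcript length and 26.7-fold by merged exons. The neighbour Rpn1 stood at 55.1 ppm.

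The genes of the surface proteins used for sorting stood above all 10 genes. Ly6c2 stood at 424 ppm, 10.3-fold above Prg2 by longest transcript and 23.5-fold by mean transcript length, and Ly6g at 657. Itgam, which encodes CD11b and is shared by both subsets, stood at 909. Of the 10 monocyte genes 6 stood above Prg2 and 4 below it, namely Ccr2 at 34.4, Cx3cr1 at 12.4, Klf4 at 8.35 and Vcan at 3.70 ppm, the last near Epx. The highest gene of all was S100a9 at 110119. The summed level of the 10 genes described was 97.5 ppm. For the 8 mature neutrophil genes the summed level was 196220, for the 10 neutrophil granule genes 38771 and for the 10 monocyte genes 1959. The monocyte sum includes the 909 of Itgam, which both subsets share. Genes used to mark other cell types were present too. Of these, Adgre1 of the macrophage list, at 164 ppm, is not made by macrophages alone. The 6 B cell genes summed to 3831 ppm, led by Ighm at 2975, the 6 macrophage genes to 3751, led by Hmox1 at 1071, and the 7 erythroid and platelet genes to 1624, led by Hbb-bs at 1076. In the erythroid and platelet list Hba-a1 followed at 525, while the list median was 5.25 ppm. Every gene of these lists was listed, and their part in the levels of the 10 genes was not tested. Lmna, the deleted gene, stood at 1.59 ppm with a mean signal of 79.5, a value that pools both genotypes and so does not check the labels.

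The bases before the start of the genes were read for motifs of GATA, RUNX, PU.1 and C/EBP factors. RefSeq promoters (GRCm38.p6) were found for all of the 10 genes but Prg2, with 10 starts, since Gata2 has 2. The RefSeq start of Fcer1a lies just outside the GENCODE gene, with its upstream window beginning at 173227230 and the gene ending at 173227214, and that of Mcpt8 lies inside the GENCODE gene. In the 250 bases before the start, on both strands, the GATA motif letters AGATAA or TGATAA occurred at 6 of the 10 starts, in Cpa3, Fcer1a, Il5ra, Ms4a2, Prg3 and Prss34. Of all 32851 promoters, 16.6% held them in a window of the same length. The RUNX letters TGTGGT occurred at 4 starts against 14.0% of all promoters, the PU.1 letters GAGGAA at 2 against 23.3%, and the C/EBP letters TTGCNNAA at 1 against 9.56%. Neither start of Gata2 nor that of Epx held any of the 4 motifs. GC made up 67.2% and 74.0% of the bases at the starts of Gata2 and 55.2% at that of Epx, against a median of 52.4% over all promoters. At the 6 starts with GATA letters GC lay between 38.8% and 52.4%, and the share over all promoters was not matched for GC. A match of letters is not a bound site.

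The windows of 4 genes with AGATAA on the strand of the gene are shown to give the place of the letters, which are in capitals with matches on the other strand (TTATCT). Each is on the strand of its gene, from GRCm38.p6. The window of Prss34 is chr17:25298144-25298393 (forward strand), with AGATAA ending 25 bases before the start. That of Cpa3 is chr3:20242182-20242431 (reverse strand), with AGATAA ending 40 bases before the start. That of Il5ra is chr6:106749038-106749287 (reverse strand), with AGATAA ending 68 bases before the start. That of Ms4a2 is chr19:11623720-11623969 (reverse strand), with 3 matches, ending 5, 31 and 218 bases before the start.
Prss34: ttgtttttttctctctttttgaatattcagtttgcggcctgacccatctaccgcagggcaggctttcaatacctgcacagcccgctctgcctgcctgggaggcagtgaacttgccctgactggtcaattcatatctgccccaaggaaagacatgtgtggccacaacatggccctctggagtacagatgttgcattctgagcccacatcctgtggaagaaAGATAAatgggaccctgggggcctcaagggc
Cpa3: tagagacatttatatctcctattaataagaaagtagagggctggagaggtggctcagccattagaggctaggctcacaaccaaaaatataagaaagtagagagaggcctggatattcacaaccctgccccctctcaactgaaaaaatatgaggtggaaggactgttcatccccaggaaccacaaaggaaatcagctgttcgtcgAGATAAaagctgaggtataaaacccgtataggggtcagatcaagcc
Il5ra: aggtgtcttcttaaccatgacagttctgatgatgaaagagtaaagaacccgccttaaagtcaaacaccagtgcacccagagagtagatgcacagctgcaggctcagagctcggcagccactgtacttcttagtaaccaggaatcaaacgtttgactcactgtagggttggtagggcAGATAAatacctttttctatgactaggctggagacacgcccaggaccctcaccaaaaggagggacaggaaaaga
Ms4a2: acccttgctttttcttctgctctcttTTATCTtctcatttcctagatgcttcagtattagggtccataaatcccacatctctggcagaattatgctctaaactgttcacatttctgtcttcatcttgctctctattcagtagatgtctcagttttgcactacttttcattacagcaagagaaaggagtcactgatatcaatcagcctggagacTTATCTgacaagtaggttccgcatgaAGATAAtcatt
By longest transcript these 4 genes differed 12.8-fold in level per length (6.04-fold by mean transcript length), from 24.0 ppm for Prss34 to 1.88 for Ms4a2, which holds the most matches.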

How the data were processed

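RNA of 8 samples was sequenced by the authors. Per the submitters' processing notes and the study's methods, reads were checked with FastQC 0.11.5 and Picard 1.119, trimmed with cutadapt 1.14, aligned to mm10 with STAR 2.5.2b, counted with RSEM 1.3.0 and normalised with DESeq2 1.20.0. The deposited signal used here is the authors' mean of counts divided by size factors, with no value per sample. The 6 other numeric columns of the table hold the authors' comparison of genotypes (fold changes, errors, scores and p-values) and were not used, so no comparison between genotypes was made.

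Worths of 1 read were solved from mean signals below 0.5 without presetting the number of libraries. The counting SD was at most the square root of the mean signal times the highest worth, and limits used 1.96 SD (95%). Lengths, coordinates and neighbours came from GENCODE M21 (GRCm38, the mm10 assembly), with 80 genes lacking a length. Total depth per sample is not given in the file, and the mean signal summed to 25236459. Upstream sequences came from RefSeq GRCm38.p6. Transcripts were compared with blastn 2.17.0 (E-value at most 1e-10, same strand) and by shared windows of 50 bases. Python 3.11.15, numpy 2.4.6, pandas 2.3.3 and matplotlib 3.10.9 were used.

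The 10 genes and the 17 gene lists were chosen with earlier results of these data known. Named were the 10 genes, genes of the lists, Lmna, the highest and lowest gene of each list where the list is described, and coding genes next to the 10, not all of which are reported here. Genes closest by transcript were named as well, chosen after their values were seen. Alternatives changed the length, the scale, the genes ranked, the comparison gene, the handling of repeated symbols and the tolerance.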

Additional observations from a re-analysis of the deposited data

How the results depend on the processing

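With a tolerance 10 times wider, each of the 1730 low mean signals still matched whole reads in 1 way only. The median level of the 10 genes was 3.44 ppm, and moved to 4.09 with merged exon lengths, above the counting limits of both middle genes (3.66 for Il5ra and 3.76 for Cpa3). It was 3.38 with mean transcript lengths, 3.71 scaled over protein-coding genes and 3.73 without mitochondrial genes, the latter values between those limits. It was 3.44 with the rows of a symbol summed. Of the 10 genes, 9 lay above the median gene, 10 had a mean signal of at least 10, and 7 lay above the median gene with mean transcript lengths. With the median taken over protein-coding genes, or over genes with a mean signal of at least 10, 3 lay above it, since the median itself then rose to 6.51 and 9.76 ppm. These 2 medians were added after seeing the data. The median share of genes higher than a gene described was 43.6%. It was 70.1% among genes with a mean signal of at least 10, 58.8% among protein-coding genes and 45.2% by mean signal without length. As a percent of a monocyte gene, the median level was 0.811% of Ly6c2, 0.925% of Csf1r and 9.98% of Ccr2. For single genes, mean transcript lengths moved the level of 7 of 10 beyond counting limits, 2 higher and 5 lower, and merged exons that of 9, 8 higher and 1 lower. Scaling over protein-coding genes raised the level of all 10 genes by the same factor, as did leaving out mitochondrial genes. With each, 5 of 10 passed their counting limits, which reflects their read numbers and not a difference between the genes. Prg2, Prss34, Mcpt8 and Epx kept the first 4 places under both length choices, while Fcer1a fell to place 10 with mean transcript lengths. No paired analysis was possible because the values used are a mean over libraries. The depth limits what can be said of the lowest genes, such as Prg3 with a counting SD of up to 8.41%.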

Other observations

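The 8 libraries behind the mean signal, which the labels tie to no group in this reading, had size factors of 0.796, 0.825, 0.839, 0.960, 0.992, 0.995, 1.05 and 1.91. No listed gene with a mean signal below 0.5 had fewer than 2 reads or reads in fewer than 2 libraries. By list median, T and NK cell genes and plasmacytoid dendritic cell genes stood lower than B cell genes. The median level was 11.2 ppm for the 6 T and NK cell genes, 3.97 for the 5 plasmacytoid dendritic cell genes and 190 for the 6 B cell genes. The 5 housekeeping genes had a median of 1140 ppm, from Tbp at 4.02 to Actb at 7676.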
